A study of Cavia porcellus with 44 samples.

Results

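The solute carriers outside mitochondria were followed in the liver of guinea pigs kept on low or high fat feeds with high or low vitamin C (vitC). Members were the rows of the variance-stabilized table whose human symbol starts with SLC, the organic anion transporters named SLCO included, without the mitochondrial SLC25A carriers and the SLC23A vitC transporters. They were 138 of the 7747 rows. The count table held 197 such symbols in all, of which 11 had no count and 48 had a total under 200 counts over all animals, and these were not tested. All 138 members had at least 200 counts, which the choice of rows implies. Of these, 17 shared every count with another symbol, leaving 130 distinct profiles, and SLC2A4RG and SLC7A6OS carry the prefix but do not encode carriers.

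Liver RNA of 44 female Hartley guinea pigs was sequenced at week 32, 1 library per animal. LFH animals (n = 8) received a feed with 3.8% fat, no added sucrose or cholesterol and 2000 mg vitC per kg, and HFH animals (n = 8) a feed with 20% fat, 15% sucrose, 0.35% cholesterol and the same vitC. HFL/HFL animals (n = 10) received the high fat feed with 50 mg vitC per kg throughout. The remaining groups received that feed for 16 weeks and then, for 16 weeks, the high fat feed with 2000 mg vitC per kg (HFL/HFH, n = 6), the low fat feed with 2000 mg (HFL/LFH, n = 6) or the low fat feed with 50 mg (HFL/LFL, n = 6). Guinea pigs, like humans, cannot make vitC. The feeds differed in fat, sucrose and cholesterol together, and also in fiber, starch and ingredients. High fat feed was given without limit in HFH and in the high fat, low vitC induction, while each low fat group was pair-fed: LFH to HFH, HFL/LFH to HFL/HFH and HFL/LFL to HFL/HFL. The feed components and this regime cannot be told apart in any comparison of low with high fat, and low fat groups were matched to different partners. No group stayed on the low fat feed with low vitC throughout.

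Solute carriers are membrane proteins that move nutrients, ions, metabolites and drugs across the plasma membrane and the membranes of organelles, along a gradient or coupled to an ion. In liver, carriers on the sinusoidal side of hepatocytes take up bile acids, organic anions, amino acids and fatty acids from blood. GLUT2 (SLC2A2) and the glucose-6-phosphate translocase of the endoplasmic reticulum (SLC37A4) serve the storage and release of glucose. Of 35 textbook liver carriers listed for naming, 12 were among the members, and the others, SLC10A1 and SLC40A1 included, were not analysed here.

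HFL/LFH animal 33 lay apart from its group toward high fat over the members, and counts that changed without it are given beside the results. Total counts were 21133807 to 35427724 per animal (median 25652393), and the members took 0.914 to 1.31% of them. Values are in CPM, read counts scaled to effective library sizes, which are the totals times a factor from trimmed means of ratios between animals (TMM). These sizes were 17669332 to 47935876, or 0.715 to 1.05 times the total in the 20 low fat animals and 1.04 to 1.38 times in the 24 high fat animals. On this scale 3 counts, used as a floor, equalled 0.0626 to 0.170 CPM by animal. CPM are not corrected for gene length, so a level is set beside the level of the same gene in other animals. Cell type markers moved with the feed. The summed level of 3 hepatocyte markers tested of 10 listed (ALB, ASGR1, SERPINA1) had medians of 152700 CPM in LFH and 63270 CPM in HFH. The sum of 4 cholangiocyte markers tested of 9 (EPCAM, KRT7, KRT19, KRT23) was 145.1 to 380.0 CPM in LFH and 717.3 to 1289 CPM in HFH, and all 4 were lower on low fat in each of the 3 feed comparisons. The sum of 5 endothelial markers tested of 8 was 667.2 to 914.3 CPM in LFH and 511.2 to 675.1 CPM in HFH, and 711 to 889.2 CPM in HFL/LFL and 454.6 to 675.9 CPM in HFL/HFL without overlap. Of these 5, 1 was called higher and 1 lower in LFH, 1 and 0 in HFL/LFH, and 4 and 0 in HFL/LFL. The sum of 6 macrophage markers tested of 15 was 645.4 to 1542 CPM in LFH and 545.9 to 1127 CPM in HFH. The sums overlapped, and 1 marker was called higher and 3 lower in LFH, 0 and 3 in HFL/LFH, and 0 and 2 in HFL/LFL. In whole liver, fewer cells of a type and less RNA per cell cannot be told apart, and the part of these markers in the results was not tested.

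Which carriers differed with the feed was asked in 3 comparisons that share no animal: LFH against HFH, HFL/LFH against HFL/HFH, and HFL/LFL against HFL/HFL. Log2 fold changes are low fat over high fat, given in that order, and a member is called where the adjusted p of edgeR's quasi-likelihood test is under 0.05. Values after ± are approximate standard errors (SE), taken as the absolute log2 fold change over the square root of the F statistic. For members with few counts they are rough. Between LFH and HFH 78 of 138 members were called, beside 49.3% of all 7750 symbols tested, with 30 higher and 48 lower in LFH. The members' share was 56.5%, with 21.7% higher and 34.8% lower, against 21.7% and 27.7% of all symbols. Between HFL/LFH and HFL/HFH 67 members were called (28 higher, 39 lower), beside 35.9% of all symbols (16.5% higher, 19.4% lower). Between HFL/LFL and HFL/HFL 61 were called (27 higher, 34 lower), beside 37.8% (18.1% higher, 19.7% lower). The median absolute log2 fold change of the members was 0.66, 0.69 and 0.58, against 0.44, 0.39 and 0.37 over all symbols. The split by direction depended on the scaling, which differed between the feeds. With counts scaled to library totals alone, an alternative added after seeing the data, 17 members were higher and 78 lower in LFH, 17 and 71 in HFL/LFH, and 17 and 57 in HFL/LFL, beside 6.15% and 62.5%, 5.15% and 47%, and 6.59% and 39.3% of all symbols. The median log2 fold change of all symbols was then -0.62, -0.47 and -0.36, against -0.06, -0.01 and -0.03 with the effective sizes, so changes below are relative to the bulk of the symbols. On the scale of library totals the called rises of SLC1A1, SLC2A1, SLC2A2, SLC2A4RG, SLC2A9, SLC16A4, SLC19A2, SLC22A2, SLC27A5, SLC29A1, SLC30A4, SLC33A1, SLC35A5, SLC38A2, SLC39A7, SLC39A9 and SLCO2A1 were lost in at least 1 of these comparisons (adjusted p of 0.0617 to 0.952), and those of SLC11A2, SLC22A18, SLC29A1, SLC39A6 and SLC39A9 turned their sign in at least 1.

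Members called the same way in all 3 feed comparisons numbered 22 higher on low fat (15.9%, against 10.5% of all symbols) and 25 lower (18.1%, against 13.4%). Some symbols share all their counts, and with each such set taken once these were 18 and 25 of 130. None was called in opposite directions, and 47 were called in no feed comparison. The CPM of the 2 groups did not overlap for 40 members between LFH and HFH (all symbols 16.9%), for 35 between HFL/LFH and HFL/HFH (16.2%) and for 24 between HFL/LFL and HFL/HFL (9.90%). Over all 20 low fat and 24 high fat animals, SLC37A4 lay higher on low fat without overlap (1.30% of all symbols did). The members SLC6A8, SLC6A6, SLC1A4, SLC17A7, SLC22A15, SLC16A11, SLC39A10 and SLC34A2 lay lower without overlap (2.66% of all symbols).

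**Figure D1:**
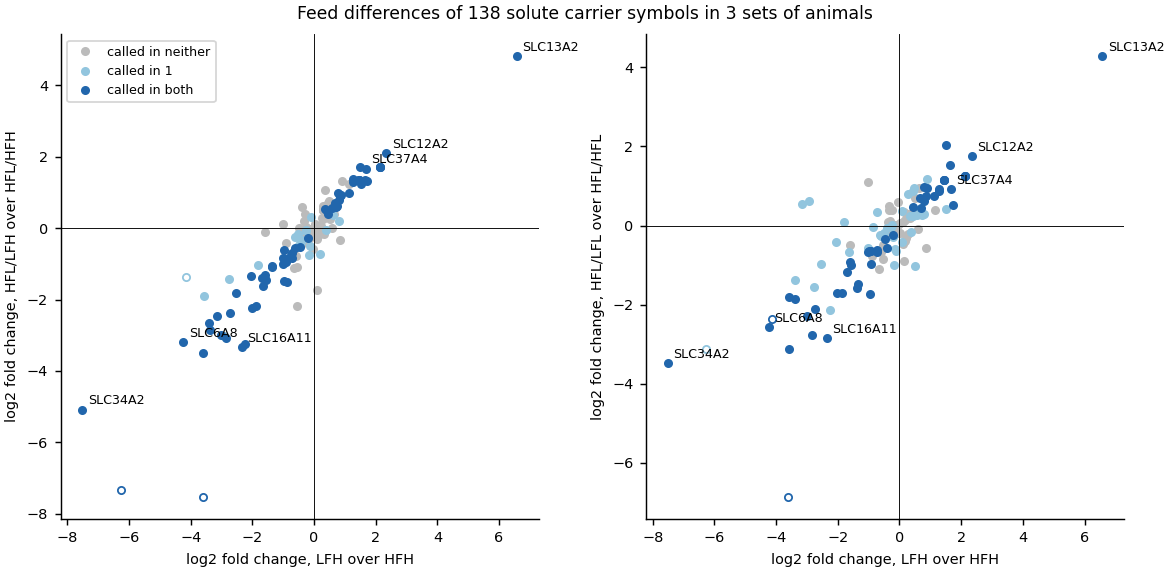
Log2 fold changes (low fat over high fat) of 138 members, with LFH over HFH on the x axis and the other feed comparisons on the y axes; each point is a member, coloured by whether it was called in both, 1 or neither, and open points have a group at or under the floor, whose fitted value is no bound. Members called in both comparisons of a panel lie in the lower left or the upper right.

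**Figure D2:**
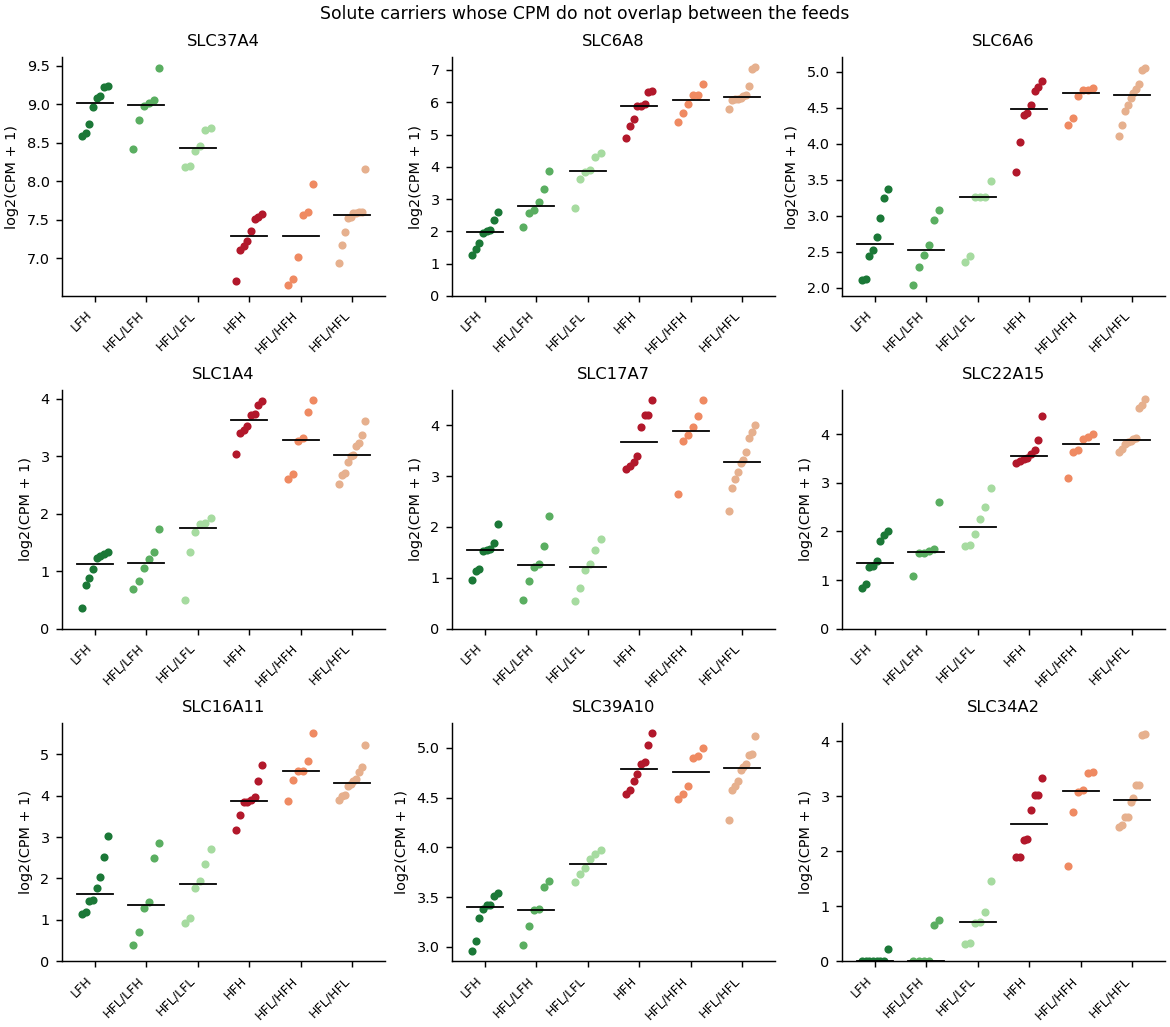
Values of the 9 members whose CPM do not overlap between the feeds, as log2(CPM + 1) by group; each point is an animal and the line is the group median. SLC37A4 is higher in the 20 low fat animals, and the other members are higher in the 24 high fat animals.

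Among carriers of amino acids and peptides more were lower than higher on low fat. Of 23 tested, 4 were higher and 12 lower in LFH than in HFH, 3 higher and 9 lower in HFL/LFH, and 2 higher and 8 lower in HFL/LFL, and 7, 11 and 13 were not called. Over all symbols 21.7% were higher and 27.7% lower in LFH, 16.5% and 19.4% in HFL/LFH, and 18.1% and 19.7% in HFL/LFL. These shares stand beside the counts of each class below. The median log2 fold changes of the class were -0.87, -1.01 and -0.57, against -0.06, -0.01 and -0.03 over all symbols. SLC6A6, the taurine transporter, read at 3.31, 5.15 and 9.42 CPM in LFH, 3.11, 4.79 and 7.51 CPM in HFL/LFH, and 4.12, 8.57 and 10.2 CPM in HFL/LFL (lowest, median, highest, as in all such triplets). On high fat it read at 11.2, 21.4 and 28.4 CPM in HFH, 18.2, 25.1 and 26.4 CPM in HFL/HFH, and 16.2, 24.6 and 32.3 CPM in HFL/HFL. Every low fat animal lay below every high fat animal, with log2 fold changes of -1.88 ± 0.22, -2.18 ± 0.26 and -1.72 ± 0.23 (largest adjusted p = 2.06e-07). SLC1A4, an exchanger of small neutral amino acids such as serine and alanine, read at 0.279, 1.19 and 1.53 CPM in LFH, 0.623, 1.21 and 2.31 CPM in HFL/LFH, and 0.417, 2.38 and 2.8 CPM in HFL/LFL. On high fat SLC1A4 read at 7.2, 11.3 and 14.4 CPM in HFH, 5.04, 8.77 and 14.7 CPM in HFL/HFH, and 4.73, 7.07 and 11.2 CPM in HFL/HFL. The feeds did not overlap, and the log2 fold changes were -3.37 ± 0.31, -2.85 ± 0.35 and -1.86 ± 0.31 (largest adjusted p = 8.33e-06).

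SLC17A7, known as a vesicular glutamate transporter of neurons, was low in reads on low fat, at 0.463 to 3.62 CPM in the 20 low fat animals and 3.94 to 21.6 CPM in the 24 high fat animals. It fell in each comparison, with log2 fold changes of -2.85 ± 0.35, -3.08 ± 0.4 and -2.76 ± 0.38 (largest adjusted p = 2.59e-07). SLC7A7, the light chain of a cationic and neutral amino acid exchanger known also from macrophages, read at 10.5, 14.9 and 19.9 CPM in LFH, 12.1, 19.1 and 30.6 CPM in HFL/LFH, and 18.5, 26.4 and 41.5 CPM in HFL/LFL. On high fat SLC7A7 read at 33.9, 45.2 and 63.4 CPM in HFH, 35.7, 51.8 and 62.1 CPM in HFL/HFH, and 37.2, 53.6 and 71.1 CPM in HFL/HFL. It fell on low fat, with log2 fold changes of -1.61 ± 0.18, -1.3 ± 0.21 and -0.93 ± 0.19 (largest adjusted p = 0.000122). The glycine transporter SLC6A9 (-3.01 ± 0.52, -2.98 ± 0.59 and -2.29 ± 0.55, largest adjusted p = 0.00092) and the exchanger SLC7A6 (-1.7 ± 0.41, -1.41 ± 0.47 and -1.17 ± 0.43, largest adjusted p = 0.0283) also fell in all 3, and the last SLC7A6 call was lost when any 1 of 4 animals was left out. SLC1A3, a glutamate transporter, fell in the first pair of comparisons (-3.39 ± 0.71 and -2.66 ± 0.79, largest adjusted p = 0.00724), while the third gave -1.38 ± 0.69 (adjusted p = 0.109). Of 13 carriers listed as known from leukocytes 5 were tested, and 4, 4 and 2 of them were lower on low fat in the 3 comparisons. Their summed level was 177 to 386.5 CPM in LFH and 176.1 to 399.8 CPM in HFH, so that the sums overlapped. That sum includes SLCO2B1, which was called in no feed comparison, and does not stand for each carrier. SLC7A7, on the same list, did not overlap between LFH and HFH.

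The amino acid carriers that were higher on low fat included SLC16A10, a carrier of aromatic amino acids. It read at 32.4, 41.4 and 52.5 CPM in LFH, 21.3, 45.3 and 52 CPM in HFL/LFH, and 22.9, 50.6 and 69 CPM in HFL/LFL. On high fat it read at 9.23, 13.9 and 21.4 CPM in HFH, 7.07, 12.6 and 19.6 CPM in HFL/HFH, and 9.17, 11.7 and 16.4 CPM in HFL/HFL. SLC16A10 rose in each comparison, with log2 fold changes of 1.5 ± 0.21, 1.7 ± 0.24 and 2.03 ± 0.2 (largest adjusted p = 2.7e-07). SLC1A1, a transporter of glutamate and cysteine, rose likewise (0.88 ± 0.23, 0.92 ± 0.26 and 0.95 ± 0.23, largest adjusted p = 0.00487). SLC6A13, a carrier of GABA and taurine, rose in the first pair of comparisons (1.52 ± 0.22 and 1.22 ± 0.25, largest adjusted p = 0.000106) and gave 0.42 ± 0.22 (adjusted p = 0.119) in the third. SLC38A2, a sodium-coupled carrier of neutral amino acids, was called between LFH and HFH (0.62 ± 0.23, adjusted p = 0.0211). That call was lost without LFH animal 64 (adjusted p = 0.0968) or LFH animal 27 (adjusted p = 0.0763), and the other comparisons gave 0.37 ± 0.26 and 0.31 ± 0.23 (largest adjusted p = 0.305).

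**Figure D3:**
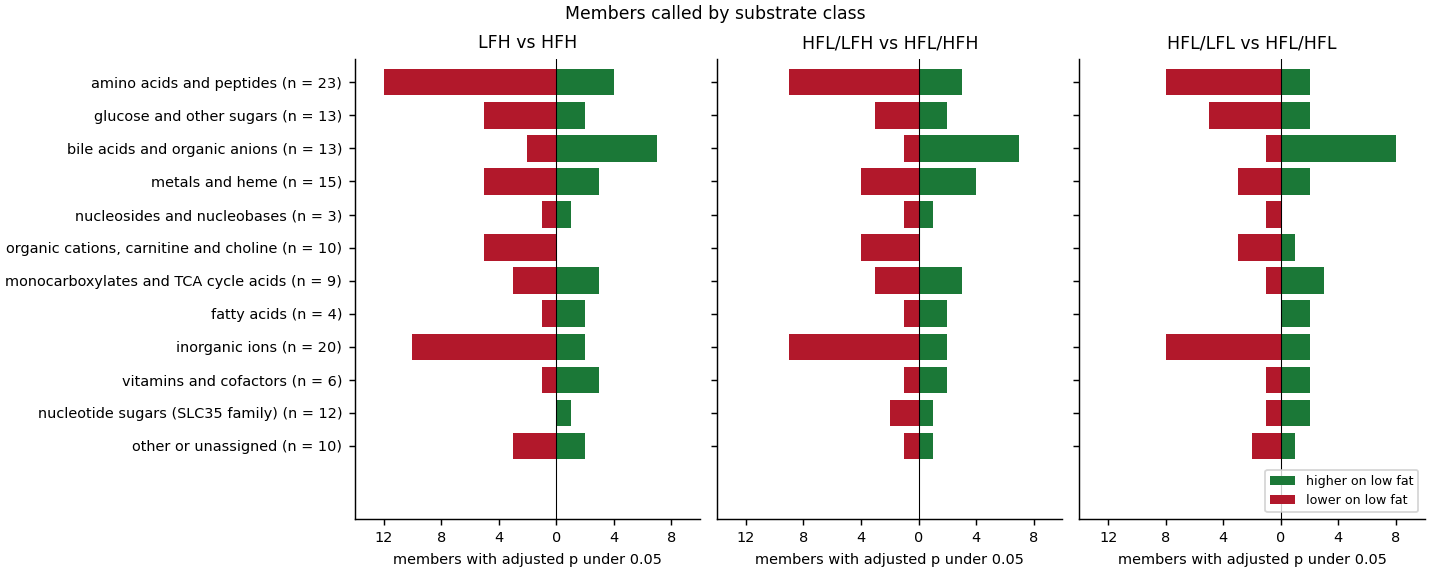
Number of members called higher (to the right) and lower (to the left) on low fat in each substrate class, for the 3 feed comparisons with effective library sizes; n is the number tested. Amino acid carriers were called lower for 12, 9 and 8 of 23 members, and carriers of bile acids and organic anions higher for 7, 7 and 8 of 13 symbols, which are 3, 3 and 4 of 9 distinct sets of counts. Over all symbols 27.7%, 19.4% and 19.7% were lower and 21.7%, 16.5% and 18.1% higher.

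Among 13 carriers of glucose and other sugars, 2 were higher and 5 lower in LFH, 2 and 3 in HFL/LFH, and 2 and 5 in HFL/LFL. The lower shares over all symbols were 27.7%, 19.4% and 19.7%. SLC37A4, which moves glucose 6-phosphate into the endoplasmic reticulum for release as glucose, read at 385, 518 and 604 CPM in LFH, 342, 509 and 709 CPM in HFL/LFH, and 289, 344 and 414 CPM in HFL/LFL. On high fat SLC37A4 read at 103, 156 and 189 CPM in HFH, 99.5, 159 and 248 CPM in HFL/HFH, and 122, 188 and 285 CPM in HFL/HFL. It rose on low fat in each comparison (1.67 ± 0.17, 1.66 ± 0.19 and 0.91 ± 0.17, largest adjusted p = 2.65e-05), 3.19-fold in LFH over HFH. The HFL/LFL animals lay above every high fat animal and overlapped LFH at the lower end of its range. SLC2A2 (GLUT2), the main glucose carrier of hepatocytes, overlapped between feeds, at 298, 379 and 622 CPM in LFH and 178, 359 and 578 CPM in HFH. Its log2 fold changes were 0.29 ± 0.29 (adjusted p = 0.425), 0.63 ± 0.33 (adjusted p = 0.14) and 0.79 ± 0.29 (adjusted p = 0.0301). The last of these was the sole call, and it was lost without any of HFL/LFL animals 13 (adjusted p = 0.147) or 17 (0.0850), or HFL/HFL animals 52, 75 or 81 (0.0509 to 0.0572).

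SLC2A8, an intracellular hexose carrier, read at 0.946, 2.51 and 3.82 CPM in LFH, 1.65, 3 and 4.46 CPM in HFL/LFH, and 3.15, 5.28 and 7.04 CPM in HFL/LFL. On high fat it read at 6.46, 9.31 and 16.6 CPM in HFH, 8.34, 13.7 and 24.4 CPM in HFL/HFH, and 10.9, 15.8 and 27.3 CPM in HFL/HFL. It fell on low fat, with log2 fold changes of -2.02 ± 0.26, -2.24 ± 0.3 and -1.7 ± 0.27 (largest adjusted p = 3.31e-06). SLC2A4 (GLUT4), the insulin-responsive carrier of muscle and fat, was lower on low fat in each comparison (-0.96 ± 0.38, -1.48 ± 0.44 and -1.73 ± 0.42, largest adjusted p = 0.0323), and its LFH call was lost when any 1 of 6 animals was left out and with limma voom (0.230). SLC2A5, a fructose carrier, had medians of 0, 0.185, 0.372, 2.14, 1.59 and 2.22 CPM in LFH, HFL/LFH, HFL/LFL, HFH, HFL/HFH and HFL/HFL, in this order for all such lists. It was called lower in LFH than in HFH (-3.57 ± 0.74, adjusted p = 9.86e-05), a fitted value that rests on very few LFH counts, while HFL/LFH against HFL/HFH gave -1.91 ± 0.78 (adjusted p = 0.0521). HFL/LFL against HFL/HFL (-1.8 ± 0.72, adjusted p = 0.0441) was called with all animals and lost when any 1 of 11 of the 16 animals of the 2 groups was left out. The sodium-glucose cotransporter SLC5A1 was lower in LFH than in HFH (-2.05 ± 0.46, adjusted p = 0.000244). Its call between HFL/LFH and HFL/HFH (-1.33 ± 0.52, adjusted p = 0.0406) was lost when any 1 of 8 animals was left out and under 2 alternatives (adjusted p = 0.0505 without the filter, 0.0896 with limma voom).

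Of 13 symbols for carriers of bile acids and organic anions, 6 hold 2 sets of counts, since SLCO1B1, SLCO1B3 and the fused symbol SLCO1B3.SLCO1B7 shared all counts at each of 2 loci. With each set taken once, 3 were higher and 2 lower of 9 in LFH, 3 and 1 in HFL/LFH, and 4 and 1 in HFL/LFL, with median log2 fold changes of 0.17, 0.06 and 0.61. Counted by symbol, they were 7 and 2, 7 and 1, and 8 and 1 of 13. OATP1B carriers take up bilirubin conjugates, bile acids and statins from blood. The first locus read at 155, 171 and 195 CPM in LFH, 101, 180.3 and 222 CPM in HFL/LFH, and 80.3, 146 and 207 CPM in HFL/LFL. On high fat it (SLCO1B1) read at 17.6, 66.8 and 108 CPM in HFH, 37.7, 67.8 and 100.4 CPM in HFL/HFH, and 50.8, 66.1 and 84 CPM in HFL/HFL. It rose on low fat, with log2 fold changes of 1.44 ± 0.23, 1.35 ± 0.27 and 1.15 ± 0.23 (largest adjusted p = 0.00011). The second locus, SLCO1B1.1, read at 693, 859 and 1049.5 CPM in LFH, 337, 778 and 938 CPM in HFL/LFH, and 370.3, 652 and 782 CPM in HFL/LFL. On high fat SLCO1B1.1 read at 73.9, 205 and 288 CPM in HFH, 129, 210.5 and 394 CPM in HFL/HFH, and 106, 274 and 368 CPM in HFL/HFL. SLCO1B1.1 rose, with log2 fold changes of 2.13 ± 0.25, 1.71 ± 0.28 and 1.25 ± 0.24 (largest adjusted p = 6.22e-05), 4.38-fold in LFH over HFH. The 7 symbols called higher in LFH were these 6 and SLC2A9, so that they stand for 3 sets of counts.

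This urate carrier, SLC2A9, rose in the 3 comparisons (0.85 ± 0.23, 0.91 ± 0.27 and 0.74 ± 0.24, largest adjusted p = 0.0111). Its HFL/LFL call was lost in 1 of the fits with an animal left out (adjusted p = 0.0869). SLCO2B1, another sinusoidal uptake carrier, was not called (0.17 ± 0.21, 0.05 ± 0.24 and 0.14 ± 0.21, largest adjusted p = 0.882), with an interval of -0.25 to 0.59 between LFH and HFH. SLCO2A1, a prostaglandin transporter, was called in HFL/LFL alone (0.94 ± 0.29, adjusted p = 0.00924), and the difference between the comparisons was not tested. SLC10A7, a member of the bile acid carrier family by sequence, fell on low fat (-0.47 ± 0.11, -0.52 ± 0.13 and -0.33 ± 0.11, largest adjusted p = 0.0188). The last SLC10A7 call was lost in 1 of the fits with an animal left out (adjusted p = 0.0561).

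Of the fatty acid transport proteins, which also act as acyl-CoA synthetases, 4 were tested, and 2 were higher and 1 lower in LFH, 2 and 1 in HFL/LFH, and 2 and 0 in HFL/LFL. SLC27A5, the bile acid-CoA ligase of liver, read at 1027, 1447 and 2029 CPM in LFH, 1427, 1939 and 2327 CPM in HFL/LFH, and 1271, 1458 and 1935 CPM in HFL/LFL. On high fat SLC27A5 read at 480.1, 889 and 1211 CPM in HFH, 789, 927 and 1105 CPM in HFL/HFH, and 606, 1028 and 1239 CPM in HFL/HFL. It rose on low fat (0.78 ± 0.16, 1.0 ± 0.19 and 0.61 ± 0.16, largest adjusted p = 0.00278), as did SLC27A2, a very long chain acyl-CoA synthetase (1.27 ± 0.17, 1.29 ± 0.2 and 0.92 ± 0.17, largest adjusted p = 3.96e-05). SLC27A6 fell between LFH and HFH and between HFL/LFH and HFL/HFH (-1.65 ± 0.32 and -1.63 ± 0.36, largest adjusted p = 0.000392), and SLC27A4 gave -0.06 ± 0.11, -0.08 ± 0.13 and 0.01 ± 0.12 (largest adjusted p = 0.936).

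Of 15 metal and heme carriers 3 were higher and 5 lower in LFH, 4 and 4 in HFL/LFH, and 2 and 3 in HFL/LFL, beside 21.7% and 27.7%, 16.5% and 19.4%, and 18.1% and 19.7% of all symbols. SLC39A10, a zinc importer of the plasma membrane, read at 6.8, 9.54 and 10.6 CPM in LFH, 7.11, 9.36 and 11.7 CPM in HFL/LFH, and 11.5, 13.3 and 14.7 CPM in HFL/LFL. On high fat SLC39A10 read at 22.2, 26.6 and 34.4 CPM in HFH, 21.4, 26.2 and 31 CPM in HFL/HFH, and 18.4, 26.7 and 33.7 CPM in HFL/HFL. The feeds did not overlap and the log2 fold changes were -1.57 ± 0.12, -1.46 ± 0.14 and -0.99 ± 0.13 (largest adjusted p = 4.22e-08). SLC39A1, another zinc importer, fell between LFH and HFH and between HFL/LFH and HFL/HFH (-0.61 ± 0.13 and -0.56 ± 0.15, largest adjusted p = 0.00245). SLC30A4, which exports zinc from the cytosol, rose in the same pair of comparisons (0.74 ± 0.14 and 0.61 ± 0.16, largest adjusted p = 0.00307), and SLC39A9 rose in all 3 (0.42 ± 0.13, 0.48 ± 0.15 and 0.46 ± 0.13, largest adjusted p = 0.00806). The iron importer SLC11A2 was higher in LFH (0.45 ± 0.12, adjusted p = 0.00161), and gave -0.08 with library totals. Of 20 genes listed for iron, zinc and copper handling 10 were tested, and 5 were higher and 3 lower in LFH, 3 and 3 in HFL/LFH, and 4 and 1 in HFL/LFL.

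Of 3 nucleoside and nucleotide carriers, 1 was higher and 1 lower in LFH, 1 and 1 in HFL/LFH, and 0 and 1 in HFL/LFL. SLC29A3, the equilibrative nucleoside transporter of lysosomes, read at 10.9, 17.2 and 21.5 CPM in LFH, 15.9, 19 and 21.6 CPM in HFL/LFH, and 16.9, 20.1 and 24.7 CPM in HFL/LFL. On high fat SLC29A3 read at 24.4, 32.1 and 37.8 CPM in HFH, 20, 35 and 45 CPM in HFL/HFH, and 30.4, 37.1 and 55.5 CPM in HFL/HFL. It fell on low fat, with log2 fold changes of -0.91 ± 0.14, -0.85 ± 0.16 and -0.97 ± 0.15 (largest adjusted p = 5.87e-05). SLC29A1, the plasma membrane nucleoside transporter, read at 723, 897 and 1006 CPM in LFH and 427, 677 and 983 CPM in HFH, and the groups overlapped. Its call between LFH and HFH (0.34 ± 0.14, adjusted p = 0.034) was lost when any 1 of 8 of the 16 animals of the pair was left out (adjusted p of 0.0514 to 0.0934) and when only these groups were fitted (0.0591), and its sign turned with library totals (-0.23). In HFL/LFH over HFL/HFH it gave 0.53 ± 0.16 (adjusted p = 0.00625), and in HFL/LFL over HFL/HFL 0.25 ± 0.14 (adjusted p = 0.153). SLC17A9, a vesicular nucleotide carrier, was not called (0.2 ± 0.2, -0.15 ± 0.23 and -0.32 ± 0.21, largest adjusted p = 0.643).

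Of 10 carriers of organic cations, carnitine and choline, none was higher and 5 were lower in LFH, none and 4 in HFL/LFH, and 1 and 3 in HFL/LFL. Beside these, 27.7%, 19.4% and 19.7% of all symbols were lower. SLC6A8, the creatine transporter, shared its counts with a row that has no gene symbol, and read at 1.41, 2.94 and 5.02 CPM in LFH, 3.39, 5.92 and 13.6 CPM in HFL/LFH, and 5.66, 13.6 and 20.4 CPM in HFL/LFL. On high fat SLC6A8 read at 28.6, 58 and 79.8 CPM in HFH, 40.7, 67 and 93.4 CPM in HFL/HFH, and 54.6, 70.5 and 137 CPM in HFL/HFL. No low fat animal reached the lowest high fat animal, and SLC6A8 fell, with log2 fold changes of -4.24 ± 0.3, -3.2 ± 0.32 and -2.57 ± 0.29 (largest adjusted p = 4.89e-09), 18.9-fold lower in LFH than in HFH. SLC22A15, an organic zwitterion and cation carrier, read at 0.788, 1.54 and 3.05 CPM in LFH, 1.13, 1.98 and 5.08 CPM in HFL/LFH, and 2.25, 3.32 and 6.46 CPM in HFL/LFL. On high fat SLC22A15 read at 9.62, 10.8 and 19.8 CPM in HFH, 7.59, 12.9 and 15 CPM in HFL/HFH, and 11.4, 13.6 and 25.3 CPM in HFL/HFL. SLC22A15 fell without overlap between feeds, with log2 fold changes of -2.73 ± 0.28, -2.38 ± 0.32 and -2.12 ± 0.29 (largest adjusted p = 2.6e-07). SLC44A2, a choline transporter-like protein, fell as well (-1.02 ± 0.16, -0.85 ± 0.19 and -0.67 ± 0.17, largest adjusted p = 0.00172). SLC22A5, the carnitine transporter, was called in no feed comparison, with -0.3 ± 0.18 (adjusted p = 0.171) between LFH and HFH. SLC18A1, a vesicular monoamine transporter, had no count in LFH, and its level in HFH was at least 2.48-fold higher, with LFH set at the floor averaged over its animals. The SLC18A1 call between these groups was lost with limma voom (adjusted p = 0.091).

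Of 9 carriers of monocarboxylates and tricarboxylic acid cycle acids, 3 were higher and 3 lower in LFH, 3 and 3 in HFL/LFH, and 3 and 1 in HFL/LFL. SLC13A2, the sodium-coupled carrier of succinate and other dicarboxylates, read at 16.9, 36.1 and 110.2 CPM in LFH, 14.6, 33.5 and 65.9 CPM in HFL/LFH, and 3.66, 12.1 and 39.8 CPM in HFL/LFL. On high fat SLC13A2 read at 0, 0.234 and 2.07 CPM in HFH, 0, 0.54 and 4.65 CPM in HFL/HFH, and 0, 0.615 and 2.18 CPM in HFL/HFL. The groups of each feed comparison did not overlap, while 1 HFL/HFH animal lay above the lowest HFL/LFL animal. The log2 fold changes were 6.58 ± 0.88, 4.81 ± 0.92 and 4.28 ± 0.74 (largest adjusted p = 5.22e-05), with high fat levels near the floor. SLC16A11 read at 1.2, 2.1 and 7.11 CPM in LFH, 0.321, 1.59 and 6.27 CPM in HFL/LFH, and 0.89, 2.63 and 5.49 CPM in HFL/LFL. On high fat SLC16A11 read at 8.06, 13.6 and 25.8 CPM in HFH, 13.7, 23.1 and 44.5 CPM in HFL/HFH, and 13.9, 18.9 and 36.5 CPM in HFL/HFL. This monocarboxylate transporter family member fell without overlap between feeds (-2.35 ± 0.41, -3.33 ± 0.49 and -2.85 ± 0.46, largest adjusted p = 6.35e-06). SLC16A4, of the same family, rose in the 3 comparisons (1.72 ± 0.17, 1.33 ± 0.19 and 0.51 ± 0.17, largest adjusted p = 0.0138), and SLC16A12 did so too (1.28 ± 0.24, 1.37 ± 0.27 and 0.87 ± 0.24, largest adjusted p = 0.00332). The last SLC16A4 call was lost without HFL/LFL animal 17 (adjusted p = 0.0764). SLC16A1, the lactate carrier MCT1, was not called (0.33 ± 0.21, -0.16 ± 0.25 and 0.19 ± 0.22, largest adjusted p = 0.645).

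Among 20 ion carriers 2 were higher and 10 lower in LFH, 2 and 9 in HFL/LFH, and 2 and 8 in HFL/LFL, and 8, 9 and 10 were not called. All symbols were lower for 27.7%, 19.4% and 19.7%. SLC34A2, a sodium-phosphate cotransporter, had no count in 7 of 8 LFH animals and 4 counts in the other, and read at 2.71, 4.73 and 9.07 CPM in HFH, 2.33, 7.55 and 9.82 CPM in HFL/HFH, and 4.44, 6.66 and 16.6 CPM in HFL/HFL. After the switch to low fat it read at 0, 0 and 0.679 CPM in HFL/LFH and 0.25, 0.634 and 1.74 CPM in HFL/LFL. The feeds did not overlap, and the fitted log2 fold changes (-7.51 ± 0.77, -5.09 ± 0.7 and -3.48 ± 0.59, largest adjusted p = 9.51e-06) rest on very few low fat counts. SLC12A2, the sodium-potassium-chloride cotransporter NKCC1, moved the other way, at 147, 192 and 307 CPM in LFH, 50.2, 142 and 173 CPM in HFL/LFH, and 57.3, 99.5 and 216 CPM in HFL/LFL. On high fat SLC12A2 read at 26.1, 41.3 and 47.7 CPM in HFH, 17.7, 32.6 and 38.5 CPM in HFL/HFH, and 20.9, 35.1 and 56 CPM in HFL/HFL. SLC12A2 rose, with log2 fold changes of 2.34 ± 0.23, 2.09 ± 0.27 and 1.75 ± 0.22 (largest adjusted p = 6.34e-08). SLC20A2, a phosphate carrier, rose (1.13 ± 0.16, 0.99 ± 0.18 and 0.75 ± 0.16, largest adjusted p = 0.000255), while the sodium-proton exchanger SLC9A8 (-0.92 ± 0.12, -0.96 ± 0.14 and -0.64 ± 0.12, largest adjusted p = 5.78e-05) fell. SLC26A9 had no count in any HFL/LFH or HFL/LFL animal, and with these groups set at the floor it was at least 6.07-fold higher in HFL/HFH and at least 4.15-fold higher in HFL/HFL.

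Of 6 vitamin and cofactor carriers 3 were higher and 1 lower in LFH, 2 and 1 in HFL/LFH, and 2 and 1 in HFL/LFL. The thiamine transporter SLC19A2 (0.68 ± 0.12, 0.72 ± 0.14 and 0.69 ± 0.12, largest adjusted p = 6.49e-05) and the acetyl-CoA carrier SLC33A1 (0.8 ± 0.14, 0.79 ± 0.16 and 0.97 ± 0.14, largest adjusted p = 0.000169) rose in all 3. The folate and heme carrier SLC46A1 rose between LFH and HFH (0.8 ± 0.14, adjusted p = 9.45e-06) and gave 0.21 ± 0.16 and 0.29 ± 0.15 (largest adjusted p = 0.35) in the other comparisons. SLC52A3, a riboflavin transporter, had medians of 0.104, 0.118, 0.0463, 1.65, 1.65 and 1.72 CPM and was called lower. Its fitted values (-3.59 ± 0.7, -3.49 ± 0.79 and -3.12 ± 0.74, largest adjusted p = 0.000859) rest on very few low fat counts. In the SLC35 family, named for nucleotide sugars, 1 of 12 members was called between LFH and HFH, SLC35F3, which rose in all 3 comparisons (1.65 ± 0.24, 1.34 ± 0.28 and 1.52 ± 0.24, largest adjusted p = 0.000164). Between HFL/LFH and HFL/HFH 1 was higher and 2 lower, and between HFL/LFL and HFL/HFL 2 were higher and 1 lower. SLC35D2, which shared its counts with a row that has no gene symbol, fell in these last comparisons (-0.76 ± 0.18 and -1.01 ± 0.17, largest adjusted p = 0.000902) and gave -0.17 ± 0.16 (adjusted p = 0.371) between LFH and HFH. The SLC35G3, SLC35G4, SLC35G5 and SLC35G6 symbols shared all counts. Of the remaining 10 members, with other or unassigned substrates, 2 were higher and 3 lower in LFH, 1 and 1 in HFL/LFH, and 1 and 2 in HFL/LFL. Among them SLC46A2 fell in all 3 (-1.37 ± 0.36, -1.09 ± 0.41 and -1.58 ± 0.39, largest adjusted p = 0.036), and its call between HFL/LFH and HFL/HFH was lost when any 1 of 7 animals was left out. The inositol carrier SLC5A3, whose counts are those of MRPS6 too, was called lower in LFH (-0.41 ± 0.17, adjusted p = 0.042) and HFL/LFL (-0.58 ± 0.18, adjusted p = 0.00957). Its call in LFH was lost when any 1 of 11 animals was left out and with limma voom (adjusted p = 0.143). SLC2A4RG, which encodes a regulator and no carrier, rose in all 3 (0.7 ± 0.1, 0.59 ± 0.11 and 0.45 ± 0.1, largest adjusted p = 0.000429).

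Members with many reads and members with few differed in direction. Of 45 members with a mean of at least 50 CPM over all animals, 24 were higher and 5 lower in LFH than in HFH, and of 93 under 50 CPM, 6 were higher and 43 lower. With shared counts taken once, these were 20 and 5 of 40, and 6 and 43 of 90. In shares this is 53.3% and 11.1% against 6.45% and 46.2%, and over all symbols it was 38.2% and 18.4% against 12.2% and 32.9%. The shares were 46.7% and 8.89% against 7.53% and 37.6% between HFL/LFH and HFL/HFH, and 46.7% and 11.1% against 6.45% and 31.2% between HFL/LFL and HFL/HFL. All symbols were split in the same way there, at 29.3% and 14.4% against 9.2% and 22.3%, and at 31.4% and 16.5% against 10.6% and 21.5%. The split is by reads, which depend on gene length, and does not rank the genes by transcript level. Among members not described above, SLC22A2, an organic cation carrier, was called in HFL/LFL (1.17 ± 0.48, adjusted p = 0.0486, lost when any 1 of 21 animals was left out or with library totals), SLC41A3, a magnesium carrier, was called in HFL/LFH and HFL/LFL (-0.49 ± 0.17 and -0.6 ± 0.15, largest adjusted p = 0.0188, the first lost without HFL/HFH animal 15 or HFL/LFH animal 43) and SLC50A1, a sugar carrier, in HFL/LFL (-0.65 ± 0.15, adjusted p = 0.000587). SLC16A14 was called lower in LFH and HFL/LFH (-0.72 ± 0.28 and -0.83 ± 0.32, largest adjusted p = 0.0383), calls lost when any 1 of 3 and of 6 animals was left out and when only the compared groups were fitted (0.0727 and 0.0737). SLC35A5 was called higher in HFL/LFL (0.87 ± 0.29, adjusted p = 0.018, lost without HFL/LFL animal 17) and SLC22A18 in LFH (0.37 ± 0.11, adjusted p = 0.00355). The LFH call of SLC7A6OS (-0.26 ± 0.1, adjusted p = 0.0385) was lost when any 1 of 9 animals was left out and with limma voom (0.371). The mitochondrial SLC25A carriers (7 higher, 4 lower of 22) and the ABC transporters (2 higher, 9 lower of 20) in LFH are given beside these counts without a test of the difference. Over all symbols 21.7% were higher and 27.7% lower in LFH.

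Principal component analysis of the members' variance-stabilized values placed 59.7% of the variance on component 1 and 7.78% on component 2. On component 1 the low fat animals reached at most -1.94 and no high fat animal lay below 1.55. Group medians were -6.50 for LFH, -5.99 for HFL/LFH, -3.55 for HFL/LFL, 4.21 for HFH, 5.16 for HFL/HFH and 4.20 for HFL/HFL. HFL/LFL lay between LFH and the high fat groups in its median, and its values overlapped HFL/LFH. They also overlapped LFH, with a lowest value of -5.84 in HFL/LFL and a highest of -5.56 in LFH. HFL/LFH animal 33 lay farthest toward high fat of its group. Without it, 71 members were called between HFL/LFH and HFL/HFH, against 67.

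**Figure D4:**
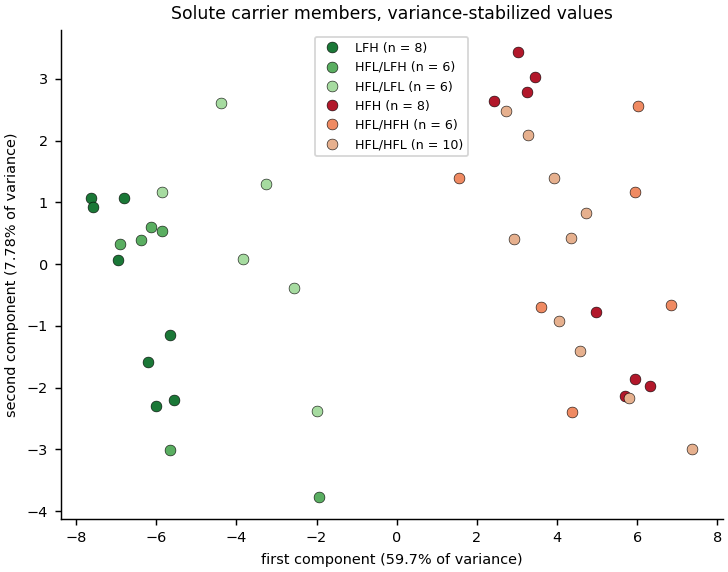
First against second principal component of the 138 members' variance-stabilized values, 1 point per animal, coloured by group. The 20 low fat animals lie at or below -1.94 on component 1, while the 24 high fat animals lie at or above 1.55, with HFL/LFL nearer to high fat than LFH by median.

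Whether these carriers differed with vitC after the switch was asked between HFL/LFL and HFL/LFH on the low fat feed. No member was called by edgeR (24 had an unadjusted p under 0.05), and 0.219% of all symbols were. SLC16A4, a monocarboxylate transporter family member, read at 31.9, 51.4 and 62.8 CPM in LFH, 28.7, 33.3 and 45.7 CPM in HFL/LFH and 16.5, 18.1 and 28.9 CPM in HFL/LFL. Its log2 fold change of HFL/LFL over HFL/LFH was -0.79 ± 0.19 (adjusted p = 0.0552), and the groups overlapped. With DESeq2 and limma voom its adjusted p was 0.0138 and 0.0341, with library totals it was 0.0268, and it was called when any 1 of 6 animals was left out, among them HFL/LFL animal 17 (adjusted p = 0.0246). SLC13A5, the citrate carrier, read at 0, 0 and 0.391 CPM in LFH, 0, 0.168 and 0.275 CPM in HFL/LFH and 0.101, 0.594 and 2.79 CPM in HFL/LFL. Its log2 fold change was 2.95 ± 0.85 (adjusted p = 0.124) with edgeR, and the adjusted p was 0.0181 with DESeq2. Both genes are among those the study chose on these animals, so that their direction is no independent evidence. Creatine carrier SLC6A8 gave 0.97 ± 0.3 (adjusted p = 0.157), zinc importer SLC39A10 0.48 ± 0.14 (adjusted p = 0.123) and SLC37A4 -0.54 ± 0.19 (adjusted p = 0.217).

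On the high fat feed, HFL/HFL against HFL/HFH called no member with edgeR (4 had an unadjusted p under 0.05; all symbols 0.0129%), and DESeq2 and limma voom called none. The interaction of vitC and feed called none either with edgeR (15 unadjusted; all symbols 0%). For SLC6A8 that interaction was 0.62 ± 0.4 (adjusted p = 0.676), with a 95% interval of -0.18 to 1.43.

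Whether the switch to low fat with low vitC brought the carriers to the LFH level was asked between HFL/LFL and LFH. These groups differ in history and in vitC, and HFL/LFH shares the later feed and vitC with LFH and the history and later fat level with HFL/LFL. The partner to which each was pair-fed also differed. Of 138 members 20 were called (14.5%, beside 7.91% of all symbols), 13 higher and 7 lower in HFL/LFL (all symbols 4.43% and 3.48%). With library totals these were 21 and 5 (all symbols 10.0% and 1.55%). Some cell type markers also moved here: 2 of 6 macrophage, 2 of 6 neutrophil, 2 of 11 T and B cell and 2 of 4 cholangiocyte markers tested were called higher and none lower. Of 3 hepatocyte, 5 stellate cell and fibroblast and 5 endothelial markers tested, none was called in either direction. The summed level of the macrophage markers was 740.2 to 1539 CPM in HFL/LFL and 645.4 to 1542 CPM in LFH, and that of the neutrophil markers 12.08 to 43.52 CPM and 3.574 to 26.23 CPM. The cholangiocyte sum was 117.6 to 328.6 CPM and 145.1 to 380.0 CPM. The part of these markers in the members' differences was not tested. Of the 20, 13 were also called between LFH and HFH, and 12 had a HFL/LFL median between those of LFH and HFH. Of all 138 members 56.5% were called between LFH and HFH, and 49.3% of all symbols. Both comparisons use the same LFH animals, which ties their directions, and the part of this in these counts was not tested. SLC6A8 was higher in HFL/LFL than in LFH, with a log2 fold change of 2.24 ± 0.29 (adjusted p = 1.83e-06), and so was SLC39A10 (0.54 ± 0.13, adjusted p = 0.00658). SLC7A7 (0.86 ± 0.19, adjusted p = 0.00386), SLC2A8 (1.04 ± 0.27, adjusted p = 0.0125) and SLC22A15 (1.04 ± 0.29, adjusted p = 0.0208) were higher as well. The SLC2A8 and SLC22A15 calls were lost with limma voom (adjusted p = 0.0766 and 0.0678) and when only these groups were fitted (0.0541 and 0.111), and that of SLC22A15 also without HFL/LFL animal 44 (0.0974). SLC16A4 was lower (-1.24 ± 0.18, adjusted p = 1.56e-05). Magnesium carrier SLC41A2 read at 27.4, 45.7 and 53.9 CPM in LFH, 38.4, 46 and 86.7 CPM in HFL/LFH and 34.9, 89.5 and 186 CPM in HFL/LFL, and its log2 fold change was 1.14 ± 0.24 (adjusted p = 0.00219). It was higher in 3 of 6 HFL/LFL animals than in any LFH or HFL/LFH animal. SLC35F2 read at 17.4, 30.3 and 42.6 CPM in LFH, 8.37, 14.3 and 18.8 CPM in HFL/LFH and 10.6, 12.9 and 22.6 CPM in HFL/LFL, and it was lower in HFL/LFL than in LFH (-1.05 ± 0.21, adjusted p = 0.0018). Its log2 difference was -1.07 from LFH to HFL/LFH and 0.03 from there to HFL/LFL, while for SLC7A10 these were 0.03 and -1.44, neither of them called. The citrate carrier SLC13A5 (3.83 ± 0.81, adjusted p = 0.00258), the phosphate carrier SLC34A2 (4.68 ± 0.84, adjusted p = 0.000391), SLC27A6 (1.09 ± 0.33, adjusted p = 0.0338), SLC16A14 (0.94 ± 0.3, adjusted p = 0.041), the endosomal sodium-proton exchanger SLC9A9 (0.6 ± 0.18, adjusted p = 0.0291) and the lysosomal sialic acid exporter SLC17A5 (0.32 ± 0.1, adjusted p = 0.0296) were higher in HFL/LFL. SLC1A7, the last of the 13, had at most 1 count in any LFH animal and at most 3 in any HFL/LFL animal, so both groups were at or under the floor and no fold is given. SLC7A10, an exchanger of small neutral amino acids (-1.4 ± 0.42, adjusted p = 0.0309), SLC12A8 (-1.62 ± 0.44, adjusted p = 0.0178), SLC35D2 (-0.76 ± 0.17, adjusted p = 0.00496), SLC41A3 (-0.58 ± 0.16, adjusted p = 0.0187) and SLC22A18 (-0.41 ± 0.12, adjusted p = 0.0208) were lower. The calls of SLC27A6, SLC16A14, SLC41A3 and SLC22A18 were lost when any 1 of 7, 11, 2 and 2 animals was left out. Those of SLC27A6 and SLC16A14 were also lost with limma voom (adjusted p = 0.224 and 0.0657), and those of SLC22A18 and SLC7A10 with library totals (0.149 and 0.0595). Those of SLC7A10, SLC9A9, SLC17A5 and SLC12A8 were lost when any 1 of 5, 6, 5 and 2 animals was left out, and all but the last of these with limma voom (0.0709 to 0.101). When only these groups were fitted, SLC1A7, SLC7A10, SLC9A9, SLC12A8, SLC13A5, SLC16A14, SLC17A5, SLC22A18, SLC27A6, SLC41A2 and SLC41A3 were not called either (0.0526 to 0.118). The fitted values of SLC13A5 and SLC34A2 rest on very few LFH counts. The count was 11 without HFL/LFL animal 49, 12 without HFL/LFL animal 44, 25 without HFL/LFL animal 17 and 8 when only these groups were fitted, SLC37A4 among them (-0.53, adjusted p = 0.0394).

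**Figure D5:**
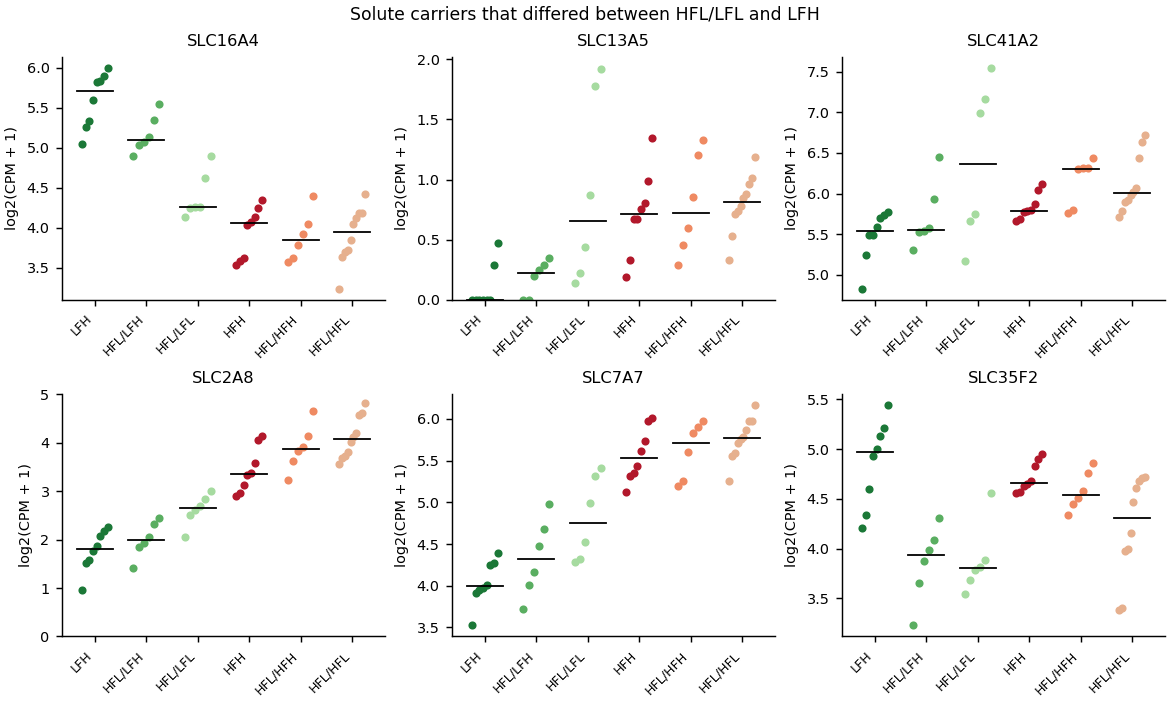
Values of 6 members called between HFL/LFL and LFH, as log2(CPM + 1) by group; each point is an animal and the line is the group median. The HFL/LFL animals lie between LFH and the high fat groups in median for SLC16A4, SLC13A5, SLC2A8 and SLC7A7, and SLC35F2 is lower than LFH in both groups switched to low fat.

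HFL/LFH and LFH received the same feed in the last 16 weeks and differ in the feed before. Of the members 2 were called (0.361% of all symbols, 0.232% higher and 0.129% lower): SLC6A8 was higher (1.27 ± 0.3, adjusted p = 0.0324) and SLC35F2 lower (-1.07 ± 0.21, adjusted p = 0.00708) in HFL/LFH. The SLC6A8 call was lost without HFL/LFH animal 33 (adjusted p = 0.198) or animal 32 (0.0714), without LFH animals 5, 46, 56 or 92 (0.0600 to 0.0818), when only these groups were fitted (0.197) and with limma voom (0.226). When only these groups were fitted SLC35F2 had an adjusted p of 0.0673. On high fat, HFL/HFL and HFH differ in vitC for all 32 weeks, while HFL/HFH and HFH differ in vitC for the first 16. In the high fat groups, HFL/HFL against HFH called no member with edgeR (17 had an unadjusted p under 0.05; all symbols 0.271%), and 3 with DESeq2 and 6 with limma voom, the GABA carrier SLC6A13 (0.8 ± 0.2, adjusted p = 0.0718 with edgeR), the bicarbonate carrier SLC4A4 (-0.58 ± 0.16, adjusted p = 0.0826) and SLC5A1 (-1.49 ± 0.41, adjusted p = 0.0852) with both. HFL/HFH against HFH called none with edgeR (5 unadjusted; all symbols 0%), and neither did the interaction of feed and history (11 unadjusted; all symbols 0.103%).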

How the data were processed

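Liver RNA of 44 animals was sequenced. According to the methods and processing notes, the authors trimmed the reads with Trimmomatic 0.38.0, aligned them with HISAT2 2.1.0, quantified them with StringTie 2.1.1 and assigned human symbols. Counts were deposited as whole numbers for each symbol and animal, not normalized, and how StringTie output became counts is not given in the sources used here. The deposited values that the authors variance-stabilized in DESeq2 are on a log2 scale and were used to choose members and for the principal component analysis. Merging orthologues under 1 symbol, or giving 1 gene several symbols, affects what a member measures. The day of death of each animal is not in the labels, so no block by day was fitted.

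Differences were tested by the quasi-likelihood F test of edgeR 4.0.16 (R 4.3.3, TMM, two-sided) in 1 fit of all 6 groups over 7750 symbols, each with at least 200 counts in all, and p-values were adjusted over all of them in each of 11 comparisons by the Benjamini-Hochberg procedure, with a threshold of 0.05. p-values measure the spread between animals. CPM use effective library sizes (17669332 to 47935876, from total counts of 21133807 to 35427724), and floors cover counting error only. Alternatives were RLE normalization, no filter, filterByExpr, a table keeping each set of identical symbols as 1, a fit of the compared groups alone, DESeq2 1.42.0, limma 3.58.1 voom with sample quality weights, and each animal left out. Leaving out SLC2A4RG and SLC7A6OS, and scaling to library totals, were added after seeing the data. In simulated data for HFL/LFL against HFL/LFH, with 200 of 7750 symbols changed by a log2 fold change of 1, edgeR recovered 117 (58.5%) with 9 false calls.

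Named members were textbook liver carriers, up to 5 per substrate class with the smallest p over the feed comparisons and a mean of at least 1 CPM, up to 10 called in each other comparison, SLC13A5 and SLC16A4, and members whose CPM did not overlap between feeds. SLC1A1, SLC1A3, SLC2A1, SLC2A4, SLC2A9, SLC4A4, SLC6A9, SLC6A13, SLC7A6, SLC7A10, SLC9A9, SLC10A7, SLC12A8, SLC17A5, SLC1A7, SLC18A1, SLC22A5, SLC26A9, SLC39A6, SLC39A7, SLC39A9 and SLCO2A1 fall outside it and were chosen after their values were seen. The members, substrate classes and marker lists were chosen with earlier results of these data known.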

Additional observations from a re-analysis of the deposited data

Results flagged for a closer look

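In 150 groups of values (25 members in 6 groups), 10 had a highest or lowest animal far from the nearest other animal by Dixon's criterion, and chance gives about 1 in 20 groups. In HFL/HFL, animal 12 read at 285 CPM for SLC37A4 (next 194), animal 52 at 991 CPM for SLC29A1 (next 755) and animal 81 at 36.5 CPM for SLC16A11 (next 24.6). In HFH, animal 88 read at 2.07 CPM for SLC13A2 (next 0.452) and at 19.8 CPM for SLC22A15 (next 13.7). In HFL/LFH, animal 33 read at 50.2 CPM for SLC12A2, below the next at 136 CPM, and at 5.08 CPM for SLC22A15, above the next at 2.11 CPM. In HFL/LFL, animal 44 read at 0.885 CPM for SLC52A3 (next 0.244) and animal 13 at 22.6 CPM for SLC35F2 (next 13.7). In LFH, animal 5 read at 0.175 CPM for SLC34A2, and the other animals had no count.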

How the results depend on the processing

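Counts of called members in the 3 feed comparisons stayed within 1.5 times under every alternative, and among named results none turned its direction except with library totals, an alternative added after seeing the data. There SLC11A2 gave -0.084 between LFH and HFH and -0.074 between HFL/LFH and HFL/HFH, SLC29A1 -0.234 and SLC22A18 -0.169 between LFH and HFH, and 1 member each was called between HFL/LFL and HFL/LFH (SLC16A4, adjusted p = 0.0268) and HFL/HFL and HFH (SLC4A4, 0.0258). With the 4 that turned, 22 calls of members under the naming rule were lost on that scale, and SLC39A6 and SLC39A9, outside it, also turned. Leaving out each animal gave 70 to 79 called between LFH and HFH, 60 to 71 between HFL/LFH and HFL/HFH, 55 to 66 between HFL/LFL and HFL/HFL, 11 to 25 between HFL/LFL and LFH, 1 to 4 between HFL/LFH and LFH (4 without HFL/LFH animal 4, 1 without HFL/LFH animals 32 or 33 or LFH animals 56 or 92), 0 to 2 between HFL/LFL and HFL/LFH (2 without HFL/LFL animal 17), 0 to 2 between HFL/HFL and HFH (2 without HFH animals 9 or 88 or HFL/HFL animal 29), and 0 in the other 4 comparisons. With only the groups compared, 8 members were called between HFL/LFL and LFH and 0 between HFL/LFH and LFH. With DESeq2, 2 were called between HFL/LFL and HFL/LFH and 3 between HFL/HFL and HFH, and with limma voom 1 and 6, and 1 between HFL/LFH and LFH. The cause was not tested. The first principal component held 38.1% of the variance with members scaled to an SD of 1 and 59.3% with log2(CPM + 1), against 59.7%. Of 154 named results, 39 passed or lost the threshold or turned under an alternative that kept all animals. No paired analysis was possible because each animal belongs to 1 group and no number is shared. Members near the floor, such as SLC34A2 on low fat, are limited by depth.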
